A study of Mus musculus with 2 samples.

Results

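Cycling conventional dendritic cells of the mouse lung are described here: the cells of the type 1 (cDC1) and type 2 (cDC2) lineages that carried transcripts of Mki67, the gene of the proliferation marker Ki-67, and of Top2a, the topoisomerase that untangles replicated chromosomes. A droplet that passed the filters (at least 500 genes, at least 1000 unique molecular identifiers (UMIs) and at most 10% mitochondrial UMIs) was called cycling when it held at least 2 UMIs of Mki67 and Top2a together. It was called cDC1 when it held at least 2 UMIs of Xcr1 and Clec9a together. It was called cDC2 when it held at least 2 UMIs of Mgl2, Cd209a and Clec10a together and none of Xcr1, Clec9a, C1qa, C1qb and C1qc. Cells with a UMI of Ccr7, the chemokine receptor of mature migrating dendritic cells, were left out. This rule found 375 cells of 12968: 270 cDC1 and 105 cDC2. Among all 12968 cells, 636 held at least 2 UMIs of Mki67 and Top2a together. The cells set against them were of the same lineage and pool and had no UMI of either gene: 1366 cDC1 and 548 cDC2. Another 174 cDC1 and 55 cDC2 held exactly 1 UMI and entered neither group.

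The study profiled single cells from lungs of zbtb46-cre x rosa26-yfp mice, in which cells with a history of Zbtb46, a transcription factor of the conventional dendritic cell lineage, are marked by yellow fluorescent protein (YFP). Adult (8 weeks) and neonatal (7 days) mice, all with these alleles, gave live cells that were sorted as CD45.2+ and YFP+. Each age had 2 pools, each of at least 5 mice and prepared independently, which were told apart by hashtag antibodies 1 and 2. Both pools of an age were loaded together with the 10x Genomics 3′ v2 chemistry, so age and loading channel cannot be told apart. The cycling cells came as 15 and 12 cDC1 and 7 and 8 cDC2 from the adult pools, and as 123 and 120 cDC1 and 62 and 28 cDC2 from the neonatal pools. Adult values of cycling cDC2 therefore rest on 15 cells in all. A Cre-driven mark also stays on in cells that no longer express Zbtb46, and the sort held other cell types besides dendritic cells.

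A cell that divides first copies its DNA, which takes the MCM helicase, the sliding clamp PCNA and a supply of nucleotides made by enzymes such as ribonucleotide reductase. It then condenses its chromosomes, builds a spindle of tubulin and kinesins, and separates the copies under the control of cyclins, CDK1 and the anaphase-promoting complex. Conventional dendritic cells arise from bone marrow precursors and keep dividing for a time after they settle in tissues such as the lung, where cDC1 are known for presenting antigen of dead cells to CD8 T cells and cDC2 for priming CD4 T cells.

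Many genes of late division are known from other cells to be controlled through a pair of short promoter elements: the CCAAT box bound by NF-Y and the cell cycle genes homology region (CHR, TTTGAA) bound by the MuvB complexes. Promoters of 6 genes on which the description turns are printed from RefSeq (build GRCm38.p6, 250 bases before to 50 after the annotated start, 5′ to 3′ on the gene's strand). They are both genes of the rule, a mitosis marker outside it (Prc1), Ccnb2 and Ube2c as further genes of mitosis and Mcm5 as a gene of replication. Capitals mark CCAAT and TTTGAA on either strand (ATTGG and TTCAAA on the other strand). The windows are chr7:135716330-135716629 on the minus strand for Mki67, chr11:99024140-99024439 on the minus strand for Top2a, chr7:80294226-80294525 on the plus strand for Prc1, chr9:70421505-70421804 on the minus strand for Ccnb2, chr2:164769679-164769978 on the plus strand for Ube2c and chr8:75109259-75109558 on the plus strand for Mcm5.
Mki67: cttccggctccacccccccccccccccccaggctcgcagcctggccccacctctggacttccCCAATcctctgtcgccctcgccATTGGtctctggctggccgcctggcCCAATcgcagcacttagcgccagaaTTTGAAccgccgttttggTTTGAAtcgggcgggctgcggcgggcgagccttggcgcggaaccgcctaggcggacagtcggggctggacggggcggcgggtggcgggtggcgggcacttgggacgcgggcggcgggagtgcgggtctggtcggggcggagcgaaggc
Top2a: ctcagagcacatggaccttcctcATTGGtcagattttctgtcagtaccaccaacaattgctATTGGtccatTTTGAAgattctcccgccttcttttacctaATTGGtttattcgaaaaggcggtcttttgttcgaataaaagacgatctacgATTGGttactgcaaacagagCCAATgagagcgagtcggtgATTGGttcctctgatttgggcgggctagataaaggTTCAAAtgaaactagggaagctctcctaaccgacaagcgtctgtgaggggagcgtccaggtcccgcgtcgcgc
Prc1: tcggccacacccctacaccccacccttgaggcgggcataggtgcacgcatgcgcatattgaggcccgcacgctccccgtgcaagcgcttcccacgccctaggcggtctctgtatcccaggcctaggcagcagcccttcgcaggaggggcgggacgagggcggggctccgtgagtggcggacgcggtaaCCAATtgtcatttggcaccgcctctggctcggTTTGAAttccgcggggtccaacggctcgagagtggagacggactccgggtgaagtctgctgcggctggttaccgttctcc
Ccnb2: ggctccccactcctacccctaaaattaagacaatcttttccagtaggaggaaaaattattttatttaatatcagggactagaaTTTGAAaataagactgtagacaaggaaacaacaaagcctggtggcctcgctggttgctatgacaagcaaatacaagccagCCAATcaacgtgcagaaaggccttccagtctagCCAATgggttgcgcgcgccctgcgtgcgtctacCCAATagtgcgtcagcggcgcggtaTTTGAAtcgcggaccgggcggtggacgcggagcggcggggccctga
Ube2c: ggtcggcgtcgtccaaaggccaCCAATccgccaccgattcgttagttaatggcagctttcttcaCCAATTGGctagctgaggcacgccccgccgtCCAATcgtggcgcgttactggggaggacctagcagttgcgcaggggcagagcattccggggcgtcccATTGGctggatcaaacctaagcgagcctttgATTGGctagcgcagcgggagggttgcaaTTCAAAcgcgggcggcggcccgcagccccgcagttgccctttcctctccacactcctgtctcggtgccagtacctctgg
Mcm5: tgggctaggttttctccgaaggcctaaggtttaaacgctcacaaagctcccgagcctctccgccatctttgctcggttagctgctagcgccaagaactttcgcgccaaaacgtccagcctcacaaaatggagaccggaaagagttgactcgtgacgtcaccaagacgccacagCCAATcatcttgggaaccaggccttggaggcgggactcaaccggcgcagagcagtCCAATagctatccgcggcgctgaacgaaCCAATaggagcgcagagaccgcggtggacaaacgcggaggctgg

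The Mki67 window holds 3 CCAAT boxes and 2 CHR, the Top2a window 6 and 2, the Prc1 window 1 and 1, the Ccnb2 window 3 and 2, and the Ube2c window 6 and 1. The window of Mcm5, a subunit of the replicative helicase, holds 3 CCAAT boxes and no CHR. In Prc1 the CCAAT box lies at -62 and the CHR at -30 relative to the start site, and in Ccnb2 the 3 CCAAT boxes at -87, -54 and -21 are followed by a CHR at 4. Of the 93 genes in the lists of spindle, kinetochore and mitotic kinase genes, 80 had a promoter in the table. Both elements were present in 47.5% of these 80, against 8.97% of all 27025 genes with a promoter. Each element was counted over all windows of a gene, so the 2 may lie in different windows. The CHR, with or without a CCAAT box, was present in 57.5% of the 80, against 15.8% of 38 DNA replication genes, 15.4% of 26 immediate early genes, 7.69% of 13 MHC class II genes and 20.2% of all genes. The CCAAT box, with or without a CHR, did not set the 80 apart in this way. It was present in 71.25% of them, against 68.42% of the DNA replication, 46.15% of the immediate early, 76.92% of the MHC class II and 41.06% of all genes. At least 2 CCAAT boxes were present in 46.25% of the 80 and in 47.37% of the DNA replication genes. The same held for 19.23% of the immediate early, 15.38% of the MHC class II and 13.27% of all genes. The E2F element GCGGGAA was in 42.1% of the DNA replication genes and in 5.29% of all genes. All elements were searched on both strands, each by itself, so that overlapping matches count for both. A match is letters in a window and not a shown binding site. Of windows looked at and not printed, that of Cdk1 holds 3 CCAAT boxes and 2 CHR. That of the mitotic cyclin Ccnb1 holds 2 CCAAT boxes and no CHR. That of Pcna holds 1 CCAAT box and no CHR, and that of Nusap1 holds neither.

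The label was checked with Prc1 and Nusap1, markers of mitosis that the rule did not use and that bundle microtubules of the spindle. Prc1 had a UMI in 37.0% of cycling cDC1 (100 of 270 cells), against 0.293% of non-cycling cDC1 (4 of 1366 cells). Nusap1 had one in 45.6% of cycling cDC1 (123 cells), against 0.293% of non-cycling cDC1 (4 cells). In cDC2 the shares were 37.1% of cycling and 0.182% of non-cycling cells for Prc1, and 39.1% of cycling and 0.182% of non-cycling cells for Nusap1. Both markers were present in every pool: Prc1 was seen in 3 of 15 and 6 of 12 adult and 54 of 123 and 37 of 120 neonatal cycling cDC1, and in 1 of 7 and 1 of 8 adult and 26 of 62 and 11 of 28 neonatal cycling cDC2. Of the 270 cycling cDC1, 186 held both genes of the rule, 65 held Mki67 only and 19 held Top2a only; of the 105 cycling cDC2, 72 held both, 23 Mki67 only and 10 Top2a only. At least 5 UMIs of the pair were counted in 153 cycling cDC1 and in 63 cycling cDC2.

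Cells close to the threshold carried less of the cycle genes than cells far above it. Prc1 and Nusap1 together made up 331 UMIs per 1000000 UMIs (CPM) in cDC1 with at least 5 UMIs of the rule genes, 41.5 CPM in those with 3 or 4, 10.1 CPM in those with 2, just inside, 5.79 CPM in those with 1, just outside, and 0.818 CPM in those with none. The same sum in cDC2 was 377 CPM, 31.2 CPM, 0 CPM, 13.02 CPM and 0.549 CPM. In cDC1 an S phase list of 43 genes ran at 3792, 3177, 2039, 1131 and 513 CPM in the same order, and a G2/M list of 52 genes without the rule genes at 10733, 5103, 3265, 1926 and 1102 CPM. cDC1 with 1 or 2 UMIs thus sat between the non-cycling cDC1 and the cDC1 with most UMIs of the rule genes, on all 3 sums with both ages together. In adult cDC1 alone, those with 2 UMIs (9 cells) had no UMI of Prc1 or Nusap1, against 2.79 CPM in those with 1 UMI and 1.08 CPM in those with none. These orders describe cells chosen on a correlated measure and carry no test.

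Irf8 and Zbtb46 were still detected in cycling cells of both lineages, with Zbtb46 at a lower level in cycling than in non-cycling cDC1. Irf8, the factor that cDC1 need, was at 1664 and 1393 (adult) and 2160 and 2022 CPM (neonatal) in cycling cDC1, against 1730 and 1794 (adult) and 2256 and 2381 CPM (neonatal) in non-cycling cDC1. In cycling cDC2 it was at 132 and 29.1 CPM in the adult pools and 55.5 and 19.2 CPM in the neonatal pools. Zbtb46 itself was at 31.6 and 28 (adult) and 44.9 and 57.2 CPM (neonatal) in cycling cDC1, against 69.1 and 68.3 (adult) and 78.7 and 67.1 CPM (neonatal) in non-cycling cDC1. All 4 cycling sums lay below all 4 non-cycling sums, as they did for 5.51% of genes tested outside the cell cycle lists. Zbtb46 and Flt3 were added here after their values were seen, as genes that define the lineage, and are given without a test. In cDC2 Zbtb46 was at 44 and 29.1 (adult) and 40.2 and 57.5 CPM (neonatal) in cycling cDC2, against 45.6 and 44 (adult) and 51.2 and 57.5 CPM (neonatal) in non-cycling cDC2, with overlapping ranges. Flt3, the receptor of the growth factor that dendritic cells depend on, was at 94.9 to 142 CPM in cycling cDC1 pools, against 114 to 144 CPM in non-cycling cDC1 pools.

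Cycling cells held more UMIs than their counterparts. Mean UMIs per cell were 10535 and 11907 in adult and 9240.9 and 9027.3 in neonatal cycling cDC1, against 7972.7 and 8047.3 in adult and 6823.8 and 6933.3 in neonatal non-cycling cDC1. In cDC2 they were 9750.6 and 8596.8 in adult and 8423 and 7450.3 in neonatal cycling cells, against 7174.9 and 7421.3 in adult and 6226.3 and 6303.9 in neonatal non-cycling cells. A cell with more UMIs reaches 2 UMIs of the rule genes more easily, so this difference is bound to the rule and was not tested. All fold changes below compare shares of a cell's UMIs (CPM), and a lower share can go with an equal or higher number of UMIs per cell. No cell barcode of the cycling cells was shared between pools, while 14 barcodes of all cells were shared between the ages. Markers of other cells were uneven between pools: the summed level of 12 neutrophil markers was 88.6 and 42.0 CPM in adult and 1211 and 200.3 CPM in neonatal cycling cDC1, and 2007 and 58.2 CPM in adult and 168.5 and 158 CPM in neonatal cycling cDC2. The summed level of 9 erythroid markers was 1240 and 489 CPM in neonatal cycling cDC1 and at most 7.00 CPM in the adult pools. The part of such RNA in the differences below was not tested.

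Cycling cells were a smaller share of both lineages in adult lungs than in neonatal lungs. In cDC1 they were 6.15% (15 of 244 cells, exact 95% binomial interval 3.48 to 9.94%) and 7.02% (12 of 171, 3.68 to 11.9%) in the adult pools, against 17.3% (123 of 710, 14.6 to 20.3%) and 17.5% (120 of 685, 14.7 to 20.6%) in the neonatal pools. The means were 6.58% ± 0.615 in adult and 17.4% ± 0.137 in neonatal pools (SD, n = 2 each), a difference of -10.8 percentage points. In cDC2 they were 5.60% (7 of 125, 2.28 to 11.2%) and 7.21% (8 of 111, 3.16 to 13.7%) in the adult pools, against 20.3% (62 of 305, 15.96 to 25.29%) and 16.8% (28 of 167, 11.4 to 23.3%) in the neonatal pools, a difference of -12.1 points (6.404% ± 1.14 in adult and 18.5% ± 2.52 in neonatal pools). The ages did not overlap in either lineage. A two-sided exact permutation test over the 4 pools gave p = 0.333 for each lineage, which is the smallest p that 2 pools against 2 can give. The counting intervals cover counting error only, since UMIs and cells of 1 pool share their library.

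Adult cDC1 and cDC2 had more UMIs per cell than neonatal ones. With every cell thinned to 2000 UMIs the differences were -5.85 points in cDC1 and -9.55 points in cDC2. The same threshold was passed by 1 of 639 and 0 of 569 adult and 4 of 458 and 4 of 571 neonatal neutrophils, cells that do not divide (0.0782% ± 0.111 in adult and 0.787% ± 0.122 in neonatal pools, SD, n = 2 each). It was passed by 2 of 315 and 5 of 314 adult and 9 of 1178 and 11 of 1299 neonatal nonclassical monocytes (1.11% ± 0.677 in adult and 0.805% ± 0.0585 in neonatal pools). Median UMIs were 1715 and 1801 in adult and 1756 and 1684 in neonatal neutrophils, and 8272 and 8748 in adult and 7006 and 7296 in neonatal cDC1, so this background was read at a lower depth. The plot of shares by pool shows the dendritic cells above both background types.

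**Figure D1:**
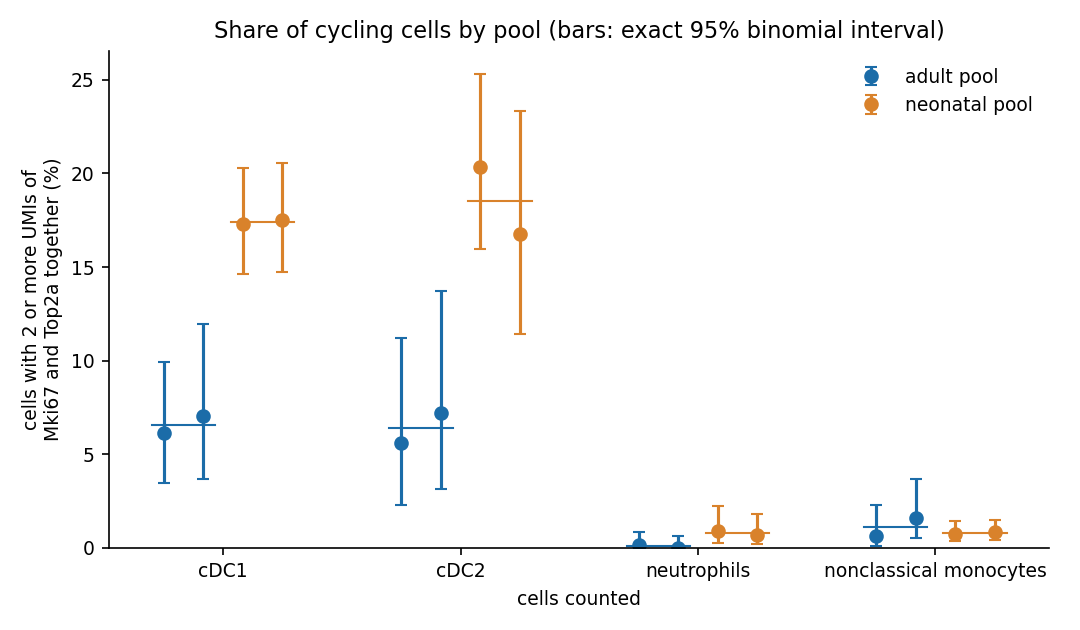
Share of cells with at least 2 UMIs of Mki67 and Top2a together (y axis, percent) in cDC1, cDC2, neutrophils and nonclassical monocytes, 1 point per pool, adult pools left of neonatal pools, with exact 95% binomial intervals as bars. The adult pools sit at 5.60 to 7.21% and the neonatal pools at 16.8 to 20.3% in the dendritic cell lineages, and neutrophils lie below 1%.

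Genes of DNA replication and of mitosis were many times higher in cycling than in non-cycling cells of the same pool. They describe what the rule selected, since the genes move together in dividing cells, and they are given as levels with no test. The 13 cell cycle lists, 293 genes, made up 3.44% and 4.47% of the UMIs in adult and 4.29% and 3.83% in neonatal cycling cDC1, against 1.27% and 1.36% in adult and 1.20% and 1.19% in neonatal non-cycling cDC1. In cDC2 they made up 3.55% and 2.95% in adult and 4.36% and 4.02% in neonatal cycling cells, against 1.35% and 1.37% in adult and 1.42% and 1.34% in neonatal non-cycling cells.

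The genes of the rule come first. Mki67 was at 462 and 518 CPM in adult and 712 and 606 CPM in neonatal cycling cDC1, and at 615 and 247 CPM in adult and 806 and 772 CPM in neonatal cycling cDC2. Top2a was at 329 and 525 CPM in adult and 432 and 377 CPM in neonatal cycling cDC1, and at 352 and 189 CPM in adult and 517 and 484 CPM in neonatal cycling cDC2. Non-cycling cells have none of either by definition. The markers outside the rule followed: Prc1 was at 44.3 and 182 (adult) and 103 and 80.3 CPM (neonatal) in cycling cDC1, against 0 and 0 (adult) and 0.283 and 0.864 CPM (neonatal) in non-cycling cDC1. Nusap1 was at 44.3 and 112 (adult) and 136 and 109 CPM (neonatal) in cycling cDC1, against 1.22 and 0.875 (adult) and 0.283 and 0 CPM (neonatal) in non-cycling cDC1. In cDC2 the level of Prc1 was 462-fold higher in cycling cells by the ratio of summed UMIs, with a counting interval of 81.2 to 18420 that rests on 1 UMI in non-cycling cells.

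Replication genes were high in every cycling pool. The 47 genes of origin licensing and the replication fork summed to 3651 and 3814 (adult) and 3277 and 3344 CPM (neonatal) in cycling cDC1, against 614 and 679 (adult) and 716 and 689.8 CPM (neonatal) in non-cycling cDC1. The same sum in cDC2 was 2341 to 3351 CPM in cycling cDC2 pools, against 464 to 782 CPM in non-cycling cDC2 pools. Pcna, the sliding clamp, was at 329 and 448 (adult) and 311 and 318 CPM (neonatal) in cycling cDC1, against 67.9 and 56 (adult) and 70.7 and 73.4 CPM (neonatal) in non-cycling cDC1. Gmnn, the licensing inhibitor geminin that accumulates from S phase on, was at 142 to 247 CPM in cycling cDC1 pools, against 18.7 to 24.5 CPM in non-cycling cDC1 pools. Lig1, the ligase that joins Okazaki fragments, was at 138 to 177 CPM in cycling cDC1 pools, against 6.73 to 16.6 CPM in non-cycling cDC1 pools. Mcm5 was at 63 to 111 CPM in cycling cDC1 pools, against 10.5 to 15.3 CPM in non-cycling cDC1 pools and at 95.9 to 128 CPM in cycling cDC2 pools, against 4.12 to 26.8 CPM in non-cycling cDC2 pools.

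Nucleotide supply showed a wide spread between its members. Its 18 genes summed to 1595 and 2142 (adult) and 1776 and 1658 CPM (neonatal) in cycling cDC1, against 517 and 589 (adult) and 598 and 556 CPM (neonatal) in non-cycling cDC1. Tyms, thymidylate synthase, was at 138 to 210.0 CPM in cycling cDC1 pools, against 7 to 9.05 CPM in non-cycling cDC1 pools. Rrm2, the regulated subunit of ribonucleotide reductase, was at 82.3 to 147 CPM in cycling cDC1 pools, against 0.864 to 2.55 CPM in non-cycling cDC1 pools. In cDC2 it was at 0 and 58.2 CPM in adult and 99.6 and 71.9 CPM in neonatal cycling cells and at 0 in all 4 non-cycling sums. Nme1, a nucleoside diphosphate kinase that resting cells also use, was at 194 to 222 CPM in cycling cDC1 pools, against 144 to 157 CPM in non-cycling cDC1 pools.

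Kinesin genes such as Kif11 were close to 0 in non-cycling cells, whereas tubulin genes such as Tubb5 were not. The 35 spindle and kinesin genes summed to 3936 and 5389 (adult) and 5180 and 4335 CPM (neonatal) in cycling cDC1, against 672 and 619.6 (adult) and 641 and 624 CPM (neonatal) in non-cycling cDC1, and in cDC2 to 2923 to 5373 CPM in cycling cDC2 pools, against 571 to 811 CPM in non-cycling cDC2 pools. Stmn1, the microtubule destabiliser stathmin, was at 911 and 1386 (adult) and 924 and 853 CPM (neonatal) in cycling cDC1, against 10.4 and 13.1 (adult) and 34 and 40.3 CPM (neonatal) in non-cycling cDC1. Tubb5, a beta tubulin, was at 955 to 1295 CPM in cycling cDC1 pools, against 163 to 188 CPM in non-cycling cDC1 pools. Kif11, the kinesin that pushes spindle poles apart, was at 57 and 105 (adult) and 129 and 96.9 CPM (neonatal) in cycling cDC1, against 0.612 and 2.62 (adult) and 0.849 and 1.15 CPM (neonatal) in non-cycling cDC1. Aspm, which sits at spindle poles and belongs to none of the fixed cycle lists, was 176-fold higher in cycling cDC1 by the ratio of summed UMIs (counting interval 58.95 to 863.9).

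Kinetochore and checkpoint genes, which hold chromosomes on the spindle, separated the states in every pool for the members named here. Birc5, the survivin subunit of the chromosomal passenger complex, was at 152 and 245 (adult) and 322 and 239 CPM (neonatal) in cycling cDC1, against 0.612 and 0.875 (adult) and 5.94 and 6.05 CPM (neonatal) in non-cycling cDC1. In cDC2 Birc5 was at 469 and 174 (adult) and 406 and 379 CPM (neonatal) in cycling cDC2, against 3.7 and 2.75 (adult) and 9.94 and 1.25 CPM (neonatal) in non-cycling cDC2. Cenpf, a kinetochore protein, was at 87.2 to 308 CPM in cycling cDC2 pools, against 1.23 to 4.59 CPM in non-cycling cDC2 pools. Ube2c, the ubiquitin-conjugating enzyme of the anaphase-promoting complex, was at 94.9 and 140.0 (adult) and 267 and 188 CPM (neonatal) in cycling cDC1, against 5.51 and 3.5 (adult) and 18.7 and 20.1 CPM (neonatal) in non-cycling cDC1. In cycling cDC2 Ube2c reached 776 CPM in adult pool 1 (7 cells) and 14.5 CPM in adult pool 2 (8 cells), against 293 and 278 CPM in the neonatal pools.

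Cyclins split by their phase. Ccnb1, the B cyclin that activates CDK1 at the entry to mitosis, was 262-fold higher in cycling cDC1 by the ratio of summed UMIs (counting interval 71.15 to 2186). Ccna2, the cyclin of S phase and G2, was at 31.6 and 77 (adult) and 88 and 68.3 CPM (neonatal) in cycling cDC1, against 0.612 and 0 (adult) and 0.283 and 0.864 CPM (neonatal) in non-cycling cDC1. The D cyclins, which carry growth factor signals into G1, did not separate the states. Ccnd1 was at 392 and 266 (adult) and 199.7 and 217 CPM (neonatal) in cycling cDC1, against 333 and 339 (adult) and 213 and 225 CPM (neonatal) in non-cycling cDC1. Ccnd3 was at 82.3 and 70.0 (adult) and 97.7 and 109.9 CPM (neonatal) in cycling cDC1, against 57.5 and 64.8 (adult) and 110.3 and 98.2 CPM (neonatal) in non-cycling cDC1. Ccnd2 was at 82.3 and 21 (adult) and 23.8 and 14.8 CPM (neonatal) in cycling cDC1, against 159.7 and 164 (adult) and 20.1 and 23 CPM (neonatal) in non-cycling cDC1. The states overlapped for all 3 D cyclins in cDC1, and Ccnd2 was lower in cycling than in non-cycling cells of both adult pools. In cDC2 Ccnd1 was at 674 and 611 (adult) and 427 and 408 CPM (neonatal) in cycling cDC2, against 479 and 489.5 (adult) and 497 and 518 CPM (neonatal) in non-cycling cDC2. Ccnd3 in cDC2 was at 87.2 to 216 CPM in cycling cDC2 pools, against 93.5 to 186 CPM in non-cycling cDC2 pools. Cdk1 was at 75.9 to 142 CPM in cycling cDC1 pools, against 2.62 to 5.94 CPM in non-cycling cDC1 pools, while Cdk6, the partner of the D cyclins, was at 22 to 35 CPM in cycling cDC1 pools, against 21.2 to 42.2 CPM in non-cycling cDC1 pools.

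Chromatin genes were divided between S phase genes and genes that resting cells also use. The 22 histone genes summed to 9999 and 14430 (adult) and 12380 and 10980 CPM (neonatal) in cycling cDC1, against 5936 and 6600 (adult) and 4804 and 4910 CPM (neonatal) in non-cycling cDC1. Hist1h1b, a linker histone made in S phase, was at 766 and 1603 (adult) and 1226 and 1063 CPM (neonatal) in cycling cDC1, against 25.1 and 31.5 (adult) and 14.7 and 10.7 CPM (neonatal) in non-cycling cDC1. H3f3a, a replication-independent H3.3 gene, was at 1799 to 2310 CPM in cycling cDC1 pools, against 1379 to 1516 CPM in non-cycling cDC1 pools. H3f3b, the other H3.3 gene, was at 1439 to 2386 CPM in cycling cDC1 pools, against 1329 to 2512 CPM in non-cycling cDC1 pools, so that its states overlapped. Replication-dependent histone transcripts mostly lack a poly(A) tail, and a 3′ kit that primes on such tails reads only part of them. Hmgb2, a chromatin protein of proliferating cells, was at 1538 and 2296 (adult) and 2849 and 2433 CPM (neonatal) in cycling cDC1, against 196 and 181 (adult) and 305 and 286 CPM (neonatal) in non-cycling cDC1.

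**Figure D2:**
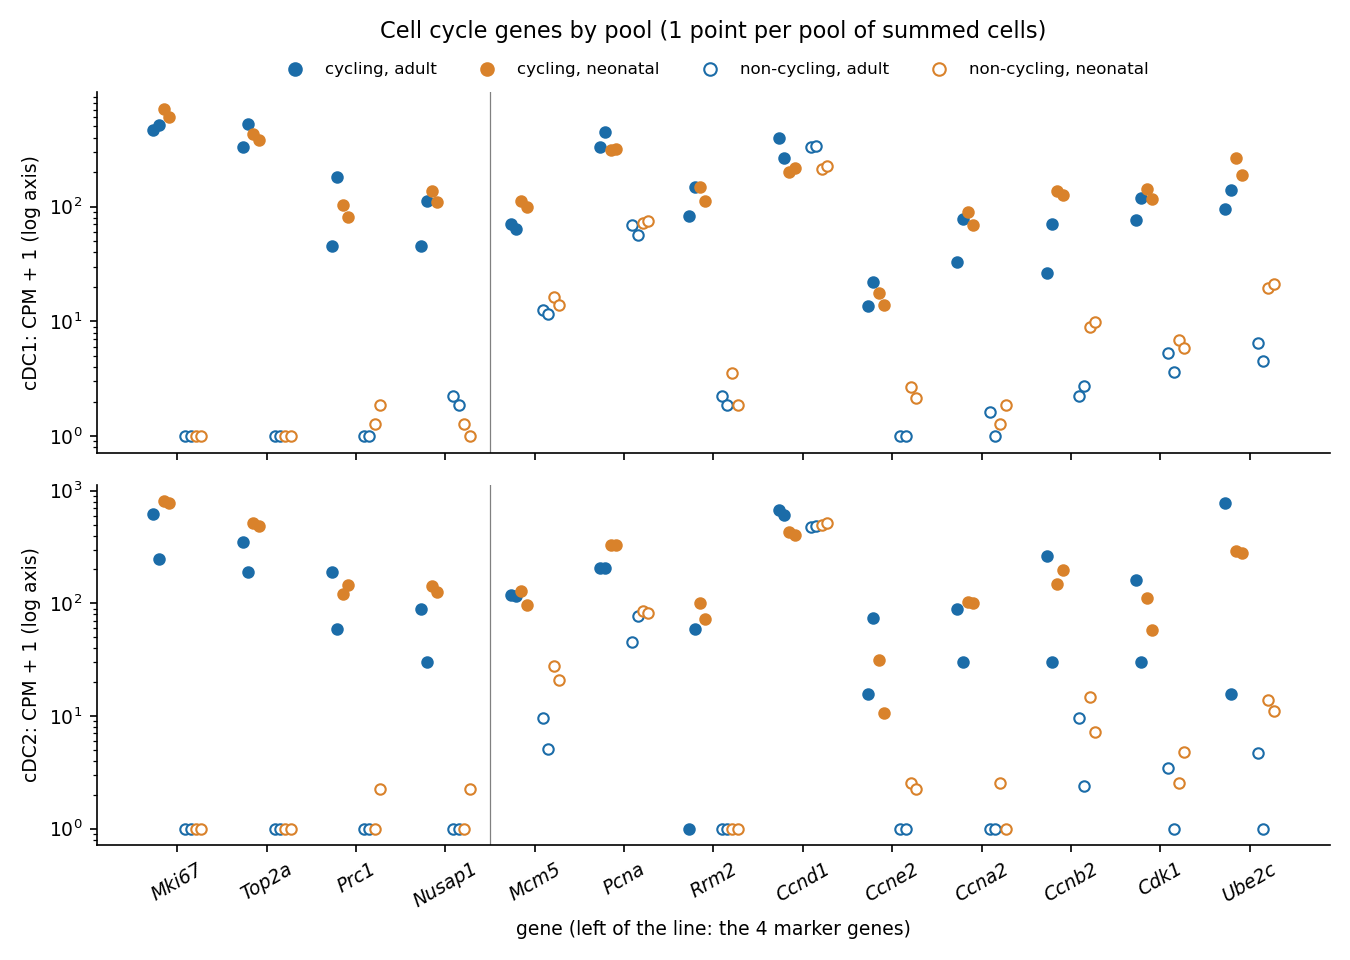
Level of marker and cell cycle genes (y axis, CPM + 1 of summed cells, log axis) in cDC1 and cDC2, 1 point per pool, filled for cycling and open for non-cycling cells, coloured by age. Genes of the rule and other marker genes stand left of the line; Ccnd1 is the gene whose cycling and non-cycling pools lie together in cDC1, at 199.7 to 392 CPM in cycling and 213 to 339 CPM in non-cycling cDC1.

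Single cells spread over a wide range of both phase lists. Cycling cDC1 held a median of 26.5 UMIs of the S phase list (10th to 90th percentile 2.9 to 66.2) and 61.5 UMIs of the G2/M list (14 to 153.1). Non-cycling cDC1 held 3 (1 to 7) and 7 (3 to 13) UMIs. Cycling cDC2 held 23 (2 to 60.6) and 55 (12 to 134.6) UMIs, against 3 (1 to 7) and 7 (3 to 13) UMIs in non-cycling cDC2. A few cells without any UMI of the rule genes reached high values, up to 69 UMIs of the G2/M list in cDC1 and 76 in cDC2, so some cells of the non-cycling group resemble cycling cells by this list.

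More G2/M than S phase UMIs were held by 40.0% (6 of 15) and 75.0% (9 of 12) of adult and by 73.2% (90 of 123) and 66.7% (80 of 120) of neonatal cycling cDC1. The means were 57.5% ± 24.7 in adult and 69.9% ± 4.60 in neonatal pools (SD, n = 2 each), and the pools of the ages overlapped (two-sided exact permutation p = 1.0). With 2 pools against 2 no p under 0.333 is possible, so this test cannot pass. In cDC2 the shares were 57.1% and 62.5% of adult and 71.0% and 75.0% of neonatal cycling cells (59.8% ± 3.79 in adult and 73.0% ± 2.85 in neonatal pools), with p = 0.333, the smallest that this exact permutation test allows. Most non-cycling cells also held more UMIs of the G2/M list, which is the longer and more abundant one, so the share is no call of phase. The direction was not stable: in cDC1 it turned to 5.08 points higher in adults without adult pool 1, and in cDC2 to 1.19 points higher with 3 or more UMIs of the rule genes. At that threshold adult pool 2 held 2 cycling cDC2.

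**Figure D3:**
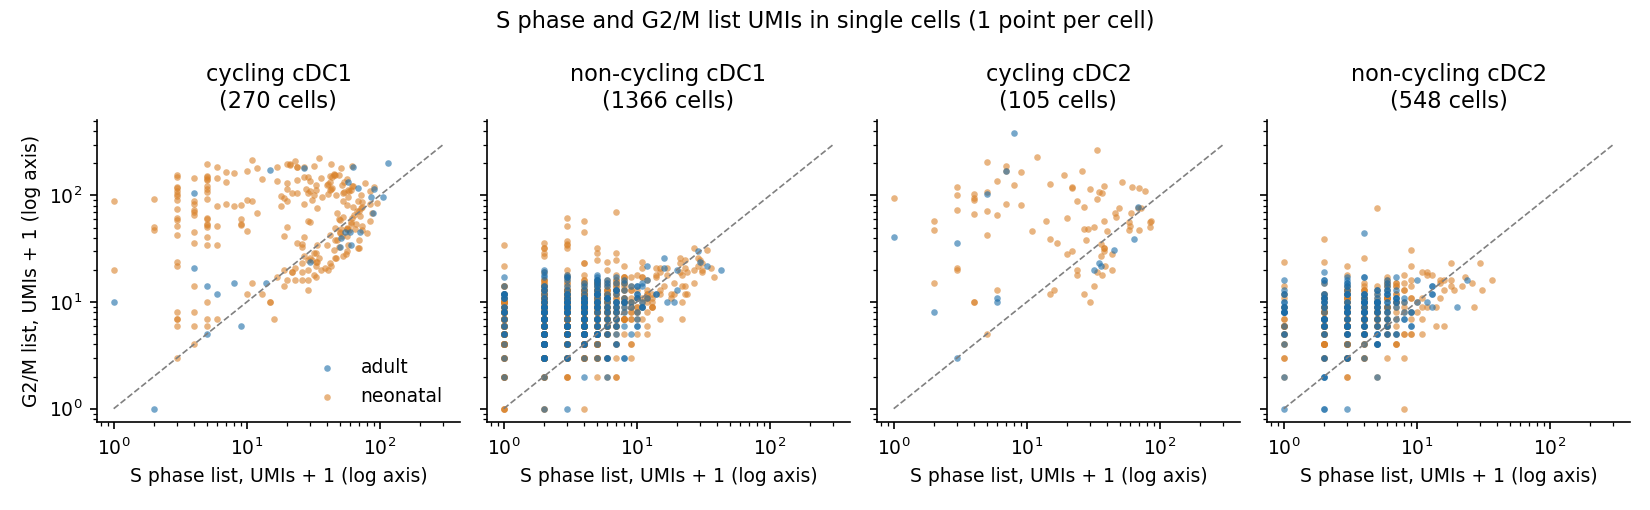
UMIs of the S phase list (x axis) and of the G2/M list (y axis) in single cells, both as UMIs + 1 on log axes, 1 point per cell coloured by age, with a panel each for cycling cDC1, non-cycling cDC1, cycling cDC2 and non-cycling cDC2. Cycling cDC1 centre on medians of 26.5 and 61.5 UMIs and non-cycling cDC1 on 3 and 7 UMIs, with a few non-cycling cells reaching into the range of the cycling ones.

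Outside the cell cycle lists, cycling cDC1 differed from non-cycling cDC1 in 1702 of 8101 genes tested (21.0%), 787 higher (9.71%) and 915 lower (11.3%), at an adjusted p under 0.05 in edgeR's quasi-likelihood test with the pool as a block. The median log2 fold change over all genes was -0.07. Cycling cDC2 differed in 458 of 6941 genes (6.60%), 202 higher (2.91%) and 256 lower (3.69%). The 2 neonatal pools carry most cycling cells: without neonatal pool 1 the counts were 855 in cDC1 and 92 in cDC2, and without neonatal pool 2 they were 979 in cDC1 and 206 in cDC2. DESeq2 called 722 genes in cDC1 and 189 in cDC2. All these counts are of genes outside the lists. The adjustment ran over list genes as well, 8382 genes in cDC1 and 7203 in cDC2, of which 1959 and 673 passed. Since the rule selected for the list genes, their small p-values ease the threshold for the others. The calls outside the lists are therefore not held at 0.05 among themselves. The genes at the top of the higher side were again genes of division that no fixed list held, such as Pclaf, a PCNA partner, Shcbp1 and Iqgap3, which act in cell separation, and the histone genes Hist1h2af and Hist1h3b.

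Antigen presentation by MHC class II took a smaller share of the transcripts in cycling cells. Of 15 class II pathway genes tested in cDC1, 11 were lower and none higher, with a median log2 fold change of -0.43 (-0.07 over all genes). Of all genes outside the cycle lists, 11.3% were lower. H2-Eb1, a class II beta chain, was at 7284 and 8244 (adult) and 5041 and 5378 CPM (neonatal) in cycling cDC1, against 9291 and 9428 (adult) and 6439 and 6484 CPM (neonatal) in non-cycling cDC1 (log2 fold change -0.38 ± 0.04, edgeR adjusted p = 4.76e-21, the error being the SE here and below). It was lower in the cycling sum of every pool. H2-DMa, which loads peptide on class II, was at 1430 and 1148 (adult) and 805 and 859 CPM (neonatal) in cycling cDC1, against 1606 and 1555 (adult) and 1085 and 1078 CPM (neonatal) in non-cycling cDC1 (log2 fold change -0.44 ± 0.06, edgeR adjusted p = 6.22e-13). Ctss, the protease that trims the invariant chain, was at 291 and 203 (adult) and 278 and 279.7 CPM (neonatal) in cycling cDC1, against 495 and 464 (adult) and 416 and 413 CPM (neonatal) in non-cycling cDC1 (log2 fold change -0.77 ± 0.09, edgeR adjusted p = 6.79e-17). All 4 cycling sums of Ctss lay below all non-cycling sums, as for 5.51% of genes. Over 15 settings the median of the list lay between -0.49 and -0.34, with 7 to 12 genes lower.

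In cDC2, 5 of 16 class II genes tested were lower and none higher (median -0.28, -0.05 over all genes), where 3.69% of all genes outside the cycle lists were lower. The count of lower class II genes was 2 without adult pool 2, 1 without neonatal pool 1 and 3 without neonatal pool 2. Among all genes outside the cycle lists, 160 of 6772, 63 of 5834 and 116 of 6599 were lower in the same order. Cd74, the invariant chain, was at 25580 and 28670 (adult) and 21040 and 19840 CPM (neonatal) in cycling cDC2, against 32920 and 34650 (adult) and 24300 and 24010 CPM (neonatal) in non-cycling cDC2 (log2 fold change -0.43 ± 0.08, edgeR adjusted p = 7.81e-05). H2-Aa, a class II alpha chain, was at 6639 to 10990 CPM in cycling cDC2 pools, against 7583 to 12270 CPM in non-cycling cDC2 pools (log2 fold change -0.34 ± 0.09, edgeR adjusted p = 0.00382), and its adjusted p was 0.0785 without adult pool 2 and 0.0936 without neonatal pool 1. Counted per cell, class II transcripts were not fewer. A cycling cDC1 held on average 586 and 685.67 class II UMIs in adult and 344.34 and 343.78 in neonatal pools, against 497.14 and 499.36 in adult and 308.16 and 306.91 in neonatal non-cycling cDC1. A cycling cDC2 held 619.71 and 614.88 in adult and 391.77 and 339.61 in neonatal pools, against 537.78 and 585.95 in adult and 331.96 and 331.31 in neonatal non-cycling cDC2. The lower share therefore went with a higher number per cell in every pool of both lineages, a number that was not tested.

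Of 23 MHC class I genes tested in cDC1, 7 were lower and 3 higher (median -0.16), with 5 and 0 without neonatal pool 1 and 3 and 3 without neonatal pool 2. Over all genes outside the cycle lists 11.3% were lower and 9.71% higher, and the 3 higher genes are near the share of all genes. Without neonatal pool 1, 424 of all 7848 genes were lower and 431 higher, and without neonatal pool 2, 515 of 7852 were lower and 464 higher. H2-D1, a classical class I heavy chain, was at 879.8 to 1568 CPM in cycling cDC1 pools, against 1016 to 1672 CPM in non-cycling cDC1 pools with the adult values above the neonatal ones in both states (log2 fold change -0.31 ± 0.06, edgeR adjusted p = 7.83e-07). H2-Q7, a nonclassical class I gene, was among the higher ones at 164 and 301 (adult) and 68.6 and 55.4 CPM (neonatal) in cycling cDC1, against 180.5 and 159 (adult) and 30.8 and 39.1 CPM (neonatal) in non-cycling cDC1 (log2 fold change 0.56 ± 0.13, edgeR adjusted p = 1.47e-04), and its adjusted p was 0.140 without neonatal pool 1. In cDC2, 1 of 22 was higher and 1 lower, near the 2.91% and 3.69% of all genes, and 0 and 4 without adult pool 1. Among all genes outside the cycle lists, 193 of 6644 were higher and 200 lower without adult pool 1.

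Immediate early genes, the AP-1 factors and stress feedback genes that respond within minutes to handling or signals, were lower in cycling cells of both lineages. In cDC1, 18 of 30 were lower and 1 higher (median -0.45), and in cDC2 12 of 30 were lower and none higher (median -0.60), with 8 lower without neonatal pool 1. Of all genes outside the cycle lists, 11.3% were lower in cDC1 and 3.69% in cDC2. Without neonatal pool 1 it was 63 of 5834 genes in cDC2. Junb was at 588 and 511 (adult) and 382 and 424 CPM (neonatal) in cycling cDC1, against 994 and 1067 (adult) and 648 and 579.8 CPM (neonatal) in non-cycling cDC1 (log2 fold change -0.80 ± 0.07, edgeR adjusted p = 3.72e-28). In cDC2 Junb was at 1099 and 1032 (adult) and 732 and 652 CPM (neonatal) in cycling cDC2, against 1803 and 1966 (adult) and 1010 and 926 CPM (neonatal) in non-cycling cDC2 (log2 fold change -0.77 ± 0.11, edgeR adjusted p = 1.57e-07). Junb was lower in the cycling sum of each of the 4 pools in both lineages. Fos was at 994 and 1267 (adult) and 1068 and 1104 CPM (neonatal) in cycling cDC1, against 1418 and 1726 (adult) and 1332 and 1199 CPM (neonatal) in non-cycling cDC1 (log2 fold change -0.41 ± 0.06, edgeR adjusted p = 9.43e-12). Zfp36, which destabilises cytokine mRNA, was at 296 to 559.9 CPM in cycling cDC1 pools, against 422 to 781 CPM in non-cycling cDC1 pools (log2 fold change -0.61 ± 0.08, edgeR adjusted p = 8.59e-14). Atf3 in cDC2 was at 278 and 189 (adult) and 149 and 173 CPM (neonatal) in cycling cDC2, against 592 and 551 (adult) and 249 and 234 CPM (neonatal) in non-cycling cDC2 (log2 fold change -0.99 ± 0.16, edgeR adjusted p = 2.18e-06). The gap between the states in cDC2 was larger in adults. The 30 genes summed to 11080 and 9597 (adult) and 7949 and 8001 CPM (neonatal) in cycling cDC2. In non-cycling cDC2 they summed to 15060 and 16140 (adult) and 9566 and 8853 CPM (neonatal). An interaction of state and age was called in cDC2 for Fos, Fosb, Jun, Nfkbia and Socs3, with values given at the end.

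Per cell, the AP-1 list made 82.4 and 90.75 UMIs in adult and 55.805 and 56.3 UMIs in neonatal cycling cDC1, against 84.634 and 95.401 in adult and 52.803 and 49.565 in neonatal non-cycling cDC1. In cDC2 it made 108 and 82.5 UMIs in adult and 66.952 and 59.607 in neonatal cycling cells, against 108.04 and 119.76 in adult and 59.562 and 55.811 in neonatal non-cycling cells. The number per cell was thus higher in cycling cells of both neonatal pools in both lineages. In adults it was lower in cycling cDC1 of both pools and in cycling cDC2 of pool 2, and nearly equal in cDC2 of pool 1. These numbers were not tested. Over 15 settings the median of this list in cDC1 lay between -0.67 and -0.34, and 5 to 20 of its genes were lower.

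Of 20 CDK inhibitor and quiescence genes tested in cDC1, 4 were higher and 3 lower (median -0.14). Over all genes 9.71% were higher and 11.3% lower. Of the higher ones, Cdkn2c, Cdkn2d and Rbl1 are known to be transcribed in dividing cells, so the rule selects for them as it does for the list genes. They make up 3 of the 4 higher genes, so that count follows from the choice of cells. Their difference between the states is given as levels without a test. Cdkn2c, the CDK4 and CDK6 inhibitor p18, was at 44.3 and 49 (adult) and 38.7 and 29.5 CPM (neonatal) in cycling cDC1, against 17.1 and 16.6 (adult) and 6.22 and 4.61 CPM (neonatal) in non-cycling cDC1. Cdkn2d, its relative p19, was at 31.6 and 49 (adult) and 80.1 and 62.8 CPM (neonatal) in cycling cDC1, against 23.9 and 25.4 (adult) and 14.4 and 15.6 CPM (neonatal) in non-cycling cDC1. Rbl1, the pocket protein p107, was at 12.7 and 35 (adult) and 37.8 and 43.4 CPM (neonatal) in cycling cDC1, against 4.89 and 3.5 (adult) and 8.2 and 9.5 CPM (neonatal) in non-cycling cDC1. These 3 levels were higher in the cycling sum of every pool.

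The antiproliferative genes Btg1 and Btg2 were lower in cycling cells. Btg1 was at 532 and 378 (adult) and 279 and 249 CPM (neonatal) in cycling cDC1, against 676 and 709 (adult) and 431 and 448 CPM (neonatal) in non-cycling cDC1 (log2 fold change -0.78 ± 0.08, edgeR adjusted p = 1.84e-20). In cDC2 Btg1 was at 366 and 276 (adult) and 203 and 254 CPM (neonatal) in cycling cDC2, against 594 and 683 (adult) and 387 and 427 CPM (neonatal) in non-cycling cDC2 (log2 fold change -1.02 ± 0.14, edgeR adjusted p = 3.33e-08). Btg2 in cDC1 was at 656 to 1316 CPM in cycling cDC1 pools, against 853 to 1530 CPM in non-cycling cDC1 pools (log2 fold change -0.45 ± 0.06, edgeR adjusted p = 5.93e-13). Cdkn1b, the inhibitor p27 of resting cells, did not pass the test in cDC1 (log2 fold change -0.05 ± 0.12, edgeR adjusted p = 0.989) and was at 63.3 and 63 (adult) and 99.4 and 97.8 CPM (neonatal) in cycling cDC1, against 110.1 and 129.5 (adult) and 85.4 and 80.9 CPM (neonatal) in non-cycling cDC1. Cdkn1a, the p53 target p21, was higher in cDC1 (log2 fold change 0.59 ± 0.19, edgeR adjusted p = 0.0151), but its log2 fold change was -0.04 without neonatal pool 1, and its adjusted p was 0.475 without adult pool 1. In cDC2, 2 of 18 genes of this list were higher and 3 lower (median -0.32), with 1 and 1 without neonatal pool 1 and 0 and 2 without neonatal pool 2. Of all genes outside the cycle lists in cDC2, 2.91% were higher and 3.69% lower. Without neonatal pool 1, 29 of 5834 were higher and 63 lower, and without neonatal pool 2, 90 of 6599 were higher and 116 lower.

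Genes of growth were called higher in cDC1 for some members of each list. Over all genes outside the cycle lists, 9.71% were higher and 11.3% lower. In cDC1, 7 of 24 ribosome biogenesis genes were higher and 1 lower (median 0.20). Of 17 glycolysis genes 5 were higher and 2 lower. Of 30 chaperone and proteasome genes 4 were higher, near the share of all genes, and 1 lower. In addition, 12 of 57 oxidative phosphorylation genes were higher and 3 lower (median 0.04). Without neonatal pool 1, 4 oxidative phosphorylation genes were higher, and without neonatal pool 2, 6 were, while the higher ribosome biogenesis genes were 4 without neonatal pool 2. The higher glycolysis genes were 2 and 3 without neonatal pools 1 and 2, and the higher chaperone and proteasome genes were 7 without adult pool 2. Among all genes outside the cycle lists, 431 of 7848 were higher without neonatal pool 1 and 464 of 7852 without neonatal pool 2. Without adult pool 2 it was 820 of 8297. Ncl, nucleolin, was at 405 and 574 (adult) and 604 and 606 CPM (neonatal) in cycling cDC1, against 366 and 357 (adult) and 391 and 424 CPM (neonatal) in non-cycling cDC1 (log2 fold change 0.43 ± 0.08, edgeR adjusted p = 4.78e-07). Nop56, a core protein of the box C/D particles that modify ribosomal RNA, was at 75.9 to 119 CPM in cycling cDC1 pools, against 45.8 to 52.5 CPM in non-cycling cDC1 pools (log2 fold change 0.90 ± 0.14, edgeR adjusted p = 7.10e-10). Gapdh, a glycolytic enzyme, was at 677 and 665 (adult) and 773 and 741 CPM (neonatal) in cycling cDC1, against 417 and 402 (adult) and 522 and 533 CPM (neonatal) in non-cycling cDC1 (log2 fold change 0.50 ± 0.07, edgeR adjusted p = 1.20e-10). Gpi1, the second enzyme of that pathway, was lower at 202 to 234 CPM in cycling cDC1 pools, against 262 to 277 CPM in non-cycling cDC1 pools (log2 fold change -0.37 ± 0.10, edgeR adjusted p = 0.00122). Hsp90aa1, the inducible HSP90, was at 362 to 518 CPM in cycling cDC1 pools, against 194 to 235 CPM in non-cycling cDC1 pools (log2 fold change 0.89 ± 0.09, edgeR adjusted p = 3.84e-21).

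In cDC2, 2 of 22 ribosome biogenesis genes were higher and none lower (median 0.17, no gene called with either neonatal pool left out), and 1 of 57 oxidative phosphorylation genes was lower. Among all genes outside the cycle lists, 2.91% were higher and 3.69% lower. Ncl in cDC2 was at 557 and 509 (adult) and 686 and 748 CPM (neonatal) in cycling cDC2, against 317 and 330.0 (adult) and 447 and 468 CPM (neonatal) in non-cycling cDC2 (log2 fold change 0.55 ± 0.13, edgeR adjusted p = 0.00112), with an adjusted p of 0.0881 without neonatal pool 1 and 0.0639 without neonatal pool 2. Per cell the ribosome biogenesis list made 25.467 and 34.917 UMIs in adult and 26.821 and 26.525 in neonatal cycling cDC1, against 18.722 and 18.711 in adult and 15.936 and 16.425 in neonatal non-cycling cDC1. The cycling cDC2 are 105 cells, against 270 cycling cDC1. No comparison at matched cell number was made, and a gene that missed the threshold in cDC2 is not shown to be unchanged.

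Genes of dendritic cell function were mostly lower where they differed. The share of all genes outside the cycle lists was 11.3% lower and 9.71% higher in cDC1. In cDC1, 10 of 20 uptake and cross-presentation genes were lower (median -0.38), as were 14 of 37 dendritic cell transcription factors (median -0.28) and 8 of 12 cDC1 markers outside the rule (median -0.27). Lower were also 4 of 11 costimulatory and regulatory genes (median -0.50), 4 of 17 maturation genes, 4 of 11 chemokine receptor genes, 8 of 19 interferon-stimulated genes (median -0.35) and 6 of 22 survival genes, with none higher in any of these lists. Without neonatal pool 1 the lower genes were 5 of the uptake list, 7 transcription factors, 4 cDC1 markers and 5 interferon-stimulated genes. Without neonatal pool 2 they were 6, 9, 4 and 2. Without adult pool 1, 8 transcription factors and 4 interferon-stimulated genes were lower, and without adult pool 2 it was 4 interferon-stimulated genes. The costimulatory count was 2 without adult pool 1 and 1 without neonatal pool 1. The chemokine receptor count was 2, 1 and 2 without adult pool 1, neonatal pool 1 and neonatal pool 2, and the maturation count was 2 without adult pool 1. Among all genes outside the cycle lists, 424 of 7848 were lower without neonatal pool 1 and 515 of 7852 without neonatal pool 2. The same counts were 641 of 7829 without adult pool 1 and 680 of 8297 without adult pool 2. Irf8, whose levels stand above, was slightly lower (log2 fold change -0.26 ± 0.05, edgeR adjusted p = 4.15e-06). Ppt1, a lysosomal thioesterase listed as a cDC1 marker, was at 392 to 595 CPM in cycling cDC1 pools, against 595 to 634 CPM in non-cycling cDC1 pools (log2 fold change -0.48 ± 0.07, edgeR adjusted p = 2.19e-09). Cd83, which stabilises class II and CD86 at the surface, was at 69.6 and 56 (adult) and 61.6 and 77.5 CPM (neonatal) in cycling cDC1, against 128 and 124 (adult) and 108 and 97.3 CPM (neonatal) in non-cycling cDC1 (log2 fold change -0.73 ± 0.13, edgeR adjusted p = 4.46e-07).

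Itga4, the alpha 4 integrin, was at 171 and 168 (adult) and 106 and 130.2 CPM (neonatal) in cycling cDC1, against 236 and 269 (adult) and 185 and 208 CPM (neonatal) in non-cycling cDC1 (log2 fold change -0.78 ± 0.11, edgeR adjusted p = 4.46e-11). Mcl1, a survival factor of the Bcl2 family, was at 349 to 437 CPM in cycling cDC1 pools, against 433 to 647 CPM in non-cycling cDC1 pools (log2 fold change -0.49 ± 0.08, edgeR adjusted p = 1.21e-08). Ifitm2, an interferon-inducible membrane protein, was at 31.6 and 49 (adult) and 42.2 and 27.7 CPM (neonatal) in cycling cDC1, against 102 and 131 (adult) and 71 and 72 CPM (neonatal) in non-cycling cDC1 (log2 fold change -1.21 ± 0.16, edgeR adjusted p = 4.18e-13). Slfn5, a schlafen family gene, was at 38 and 28 (adult) and 24.6 and 34.2 CPM (neonatal) in cycling cDC1, against 133 and 119.9 (adult) and 124 and 136 CPM (neonatal) in non-cycling cDC1 (log2 fold change -2.20 ± 0.16, edgeR adjusted p = 1.50e-42). Il1b, the cytokine interleukin 1 beta, was at 12.7 and 35 (adult) and 16.7 and 19.4 CPM (neonatal) in cycling cDC1, against 129 and 93.6 (adult) and 38.5 and 57 CPM (neonatal) in non-cycling cDC1 (log2 fold change -1.67 ± 0.20, edgeR adjusted p = 1.63e-15).

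Most classical monocyte genes tested were lower in cycling cDC2, where 3.69% of all genes outside the cycle lists were lower. Of 6 classical monocyte genes tested 5 were lower (median -2.20), and 5 of 11 cDC2 markers outside the rule (median -0.64), 5 of 36 transcription factors (median -0.27), 4 of 26 interferon-stimulated genes (1 higher, median -0.40) and 2 of 7 macrophage genes were lower. Without adult pool 2 and without neonatal pool 2, 3 classical monocyte genes were lower. Without adult pool 2 and without neonatal pool 1, 1 macrophage gene was lower. Without neonatal pool 1 the lower genes were 2 cDC2 markers and 2 transcription factors, and without neonatal pool 2 they were 3 cDC2 markers and 2 interferon-stimulated genes. Among all genes outside the cycle lists, 63 of 5834 were lower without neonatal pool 1 and 116 of 6599 without neonatal pool 2. The count was 160 of 6772 without adult pool 2. The 8 classical monocyte markers summed to 776 and 771 (adult) and 586 and 475 CPM (neonatal) in cycling cDC2, against 2282 and 1724 (adult) and 921 and 902 CPM (neonatal) in non-cycling cDC2. F13a1, coagulation factor XIII of monocytes and macrophages, was 31.4-fold lower in cycling cDC2 by the ratio of summed UMIs (counting interval 8.61 to 260.8), and its fitted log2 fold change was -3.87, with -8.00 without neonatal pool 1. Ly6c2, the surface antigen of classical monocytes, was at 14.7 and 0 (adult) and 13.4 and 0 CPM (neonatal) in cycling cDC2, against 153 and 72.9 (adult) and 23.7 and 17.5 CPM (neonatal) in non-cycling cDC2 (log2 fold change -2.16 ± 0.46, edgeR adjusted p = 3.69e-04), and its log2 fold change was -4.33 without neonatal pool 1. Over 15 settings the median of this list lay between -4.003 and -0.92. The rule for cDC2 removes cells with C1q transcripts but not monocyte-derived cells, and the part of such cells in these differences was not tested.

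Zeb2, a transcription factor of the cDC2 and monocyte lineages, was at 234 and 116 (adult) and 174 and 239.7 CPM (neonatal) in cycling cDC2, against 359 and 388 (adult) and 367 and 349.7 CPM (neonatal) in non-cycling cDC2 (log2 fold change -1.02 ± 0.16, edgeR adjusted p = 8.86e-07). Ccr2, the chemokine receptor by which precursors leave the marrow, was at 366 and 582 (adult) and 308 and 283 CPM (neonatal) in cycling cDC2, against 757 and 664 (adult) and 484 and 477 CPM (neonatal) in non-cycling cDC2 (log2 fold change -0.78 ± 0.14, edgeR adjusted p = 7.70e-06). Lrp1, a receptor for the uptake of dead cells and protease complexes, was at 87.9 and 58.2 (adult) and 47.9 and 52.7 CPM (neonatal) in cycling cDC2, against 170.2 and 169 (adult) and 108 and 94.9 CPM (neonatal) in non-cycling cDC2 (log2 fold change -1.21 ± 0.23, edgeR adjusted p = 5.72e-05). Ifitm3 was at 747 and 625 (adult) and 139.8 and 173 CPM (neonatal) in cycling cDC2, against 1892 and 1660 (adult) and 499 and 507 CPM (neonatal) in non-cycling cDC2 (log2 fold change -1.70 ± 0.13, edgeR adjusted p = 1.47e-18). Retnla, a secreted protein of alternatively activated macrophages, was at 0 and 0 (adult) and 9.57 and 0 CPM (neonatal) in cycling cDC2, against 19.7 and 1108 (adult) and 169.8 and 136 CPM (neonatal) in non-cycling cDC2. Its non-cycling level rests on adult pool 2, and its log2 fold change of -5.37 was -4.57 without that pool and -10.14 without neonatal pool 1.

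**Figure D4:**
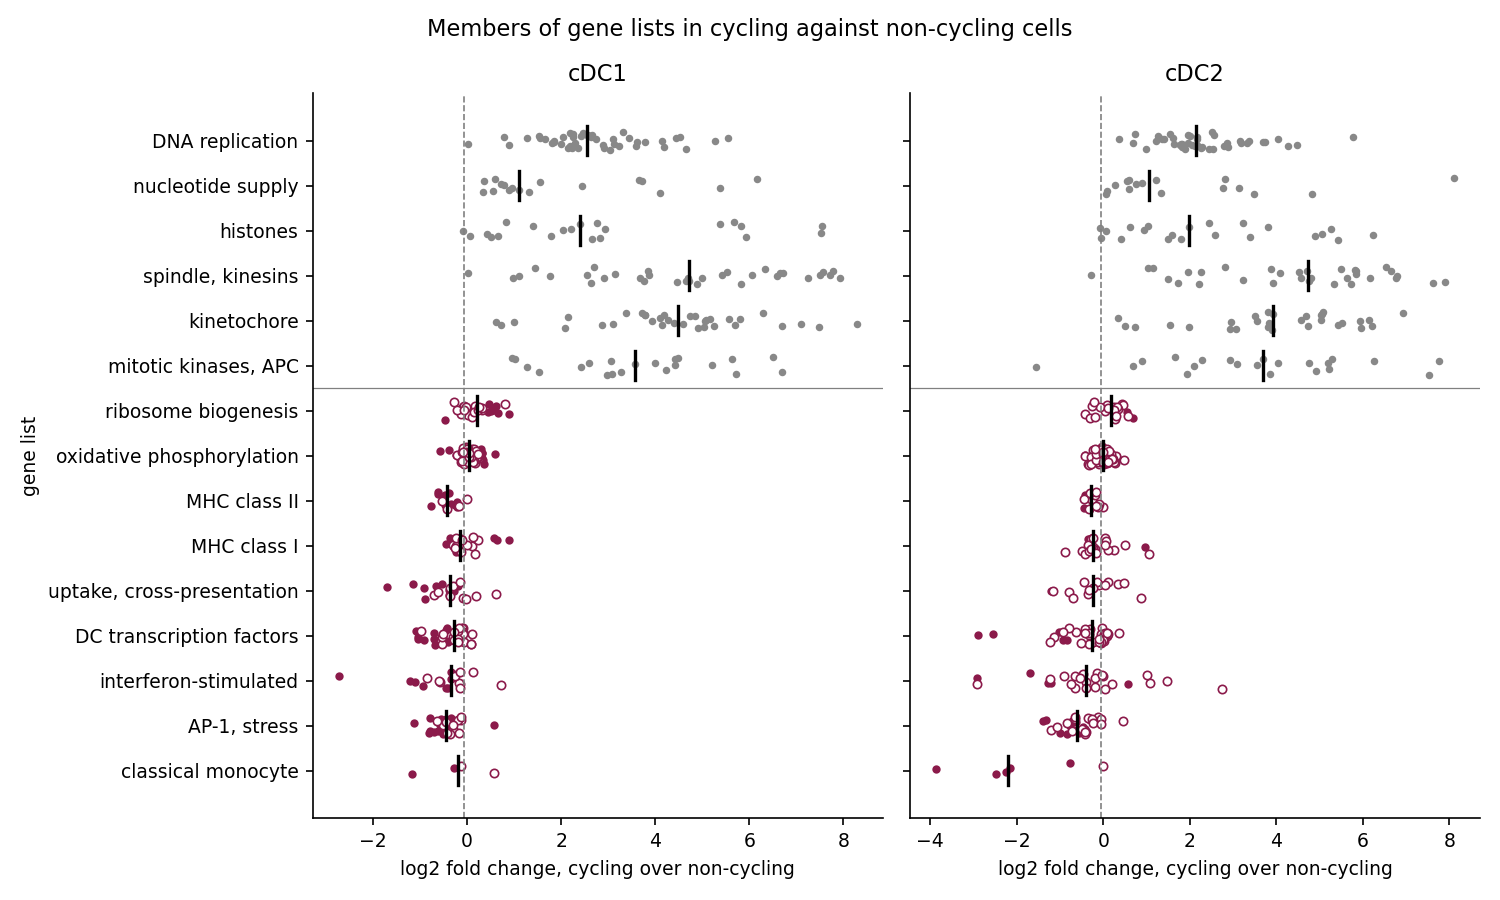
Log2 fold change (x axis, cycling over non-cycling) of the members of selected gene lists (y axis) in cDC1 and cDC2, 1 point per gene tested, filled where the adjusted p was under 0.05 and open otherwise, with a black tick at the list's median and a dashed line at the median of all genes. Cell cycle lists are drawn in grey as a description, and their fitted values depend on a prior count where non-cycling cells hold few UMIs; the class II median lies at -0.43 in cDC1 and -0.28 in cDC2.

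The cycling difference was tested for a difference between the lineages. An interaction of state and lineage was called for 14 of 8958 genes (0.156%), with 476 at an unadjusted p under 0.05 and 2 called by DESeq2. Without adult pool 1 the count was 3 and without adult pool 2 it was 7. Fam111a, a PCNA-binding protease of replicating cells, differed less between the states in cDC2. It was at 88.6 and 140.0 (adult) and 99.4 and 113 CPM (neonatal) in cycling cDC1, against 31.8 and 36.8 (adult) and 24.6 and 22.2 CPM (neonatal) in non-cycling cDC1, and at 87.9 and 102 (adult) and 153 and 125 CPM (neonatal) in cycling cDC2, against 118 and 116 (adult) and 89.5 and 97.4 CPM (neonatal) in non-cycling cDC2 (difference of log2 fold changes, cDC2 minus cDC1, -1.62, edgeR adjusted p = 1.88e-08). Timeless, a fork protection factor, was at 108 and 63 (adult) and 103 and 102 CPM (neonatal) in cycling cDC1, against 85 and 91 (adult) and 92.8 and 92.7 CPM (neonatal) in non-cycling cDC1. In cDC2 it was at 44 and 14.5 (adult) and 26.8 and 24 CPM (neonatal) in cycling cDC2, against 8.63 and 2.75 (adult) and 7.65 and 3.75 CPM (neonatal) in non-cycling cDC2 (difference 1.98, edgeR adjusted p = 0.0381). The call was lost when any 1 of the 4 pools was left out, with adjusted p of 0.258 and 0.0718 without adult pools 1 and 2 and of 0.409 and 0.290 without neonatal pools 1 and 2. Tuba1b, an alpha tubulin, was higher in cycling cells of both lineages, by less in cDC2 (difference -0.93, edgeR adjusted p = 0.0017, 0.0523 without adult pool 2).

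Adult and neonatal cycling cells differed in antigen presentation genes, surface receptors and a few genes of division. In cDC1, 133 of 6231 genes differed (2.13%), 102 higher (1.64%) and 31 lower (0.498%) in adults. The count was 212 without adult pool 2, 66 without neonatal pool 1 and 86 without neonatal pool 2. In cDC2, 82 of 2321 genes differed (3.53%), 54 higher (2.33%) and 28 lower (1.21%) in adults, and 34 without neonatal pool 1 and 34 without neonatal pool 2. DESeq2 called 73 genes in cDC1 and 31 in cDC2. Among non-cycling cells, with many more adult cells, the same comparison called 1684 of 9265 genes in cDC1 (18.2%) and 916 of 6923 in cDC2 (13.2%).

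Class II genes were higher in adult cycling cells of both lineages, 9 of 14 tested in cDC1 (median 0.58, -0.03 over all genes) and 4 of 14 in cDC2 (median 0.57, -0.02 over all genes), with none lower. Of all genes tested, 1.64% were higher in cDC1 and 2.33% in cDC2. The count in cDC2 was 1 with neonatal pool 1 left out, and likewise with neonatal pool 2 left out. Cd74 was at 25610 and 25750 CPM in adult cycling cDC1, against 15000 and 15410 CPM in neonatal cycling cDC1 (log2 fold change 0.83 ± 0.07, edgeR adjusted p = 1.17e-07), and its difference between the ages in non-cycling cDC1 was 0.62. H2-Eb1 was at 11030 and 11590 CPM in adult cycling cDC2, against 5984 and 6304 CPM in neonatal cycling cDC2 (log2 fold change 0.91 ± 0.13, edgeR adjusted p = 4.36e-04), against 0.89 in non-cycling cDC2. Class I genes followed with 5 of 23 higher in cDC1 (median 0.25) and 5 of 14 higher in cDC2 (median 0.78), none lower, and with 3 in cDC1 without neonatal pool 1. H2-K1, a classical class I heavy chain, was at 816 and 875 CPM in adult cycling cDC1, against 481 and 488 CPM in neonatal cycling cDC1 (log2 fold change 0.87 ± 0.12, edgeR adjusted p = 1.37e-04). B2m, the light chain of class I, was at 1480 and 1352 CPM in adult cycling cDC2, against 511 and 642 CPM in neonatal cycling cDC2 (log2 fold change 1.36 ± 0.17, edgeR adjusted p = 9.67e-05). The adult and neonatal pools did not overlap for these 4 genes, nor did they for 48.1% of all genes tested in cDC1 and 50.2% in cDC2.

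Klrd1, Epcam, Pcdh7 and S100a6 are named for the size of their change among the genes that were higher in adult cycling cDC1. Klrd1, the CD94 subunit of NK-type lectin receptors, was at 202 and 126 CPM in adult cycling cDC1, against 0.88 and 4.62 CPM in neonatal cycling cDC1 (log2 fold change 5.92 ± 0.49, edgeR adjusted p = 1.92e-07), and its log2 fold change ran from 5.09 without neonatal pool 1 to 7.22 without neonatal pool 2. Epcam, an epithelial adhesion molecule, was at 222 and 105 CPM in adult cycling cDC1, against 17.6 and 27.7 CPM in neonatal cycling cDC1 (log2 fold change 2.94 ± 0.36, edgeR adjusted p = 3.44e-05), and was 2.27 without adult pool 1. Pcdh7, a protocadherin, was at 57 and 77 CPM in adult cycling cDC1, against 0 and 0 CPM in neonatal cycling cDC1, at least 49.2-fold higher against a floor of 3 UMIs over the neonatal group. S100a6, a calcium-binding protein, was at 848 and 462 CPM in adult cycling cDC1, against 90.6 and 109.9 CPM in neonatal cycling cDC1 (log2 fold change 2.80 ± 0.23, edgeR adjusted p = 1.12e-05). Each of these was also higher in adult non-cycling cDC1.

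Of the CDK inhibitor and quiescence list, 3 of 15 genes tested in cDC1 and 2 of 6 in cDC2 were higher in adult cycling cells, and none lower (1.64% and 2.33% of all genes were higher). The count in cDC1 was 1 without neonatal pool 2, and 2 with any other pool left out. Of the interferon-stimulated list, none of 13 genes passed in cDC1 and 3 of 7 were higher in cDC2, with 6 without adult pool 2. Btg2 was at 1316 and 987 CPM in adult cycling cDC1, against 689 and 656 CPM in neonatal cycling cDC1 (log2 fold change 0.86 ± 0.12, edgeR adjusted p = 2.58e-04), and in cDC2 at 1436 and 1105 CPM in adult cycling cDC2, against 417 and 374 CPM in neonatal cycling cDC2 (log2 fold change 1.69 ± 0.17, edgeR adjusted p = 1.21e-05). In cDC2 Ifitm3 was at 747 and 625 CPM in adult cycling cDC2, against 139.8 and 173 CPM in neonatal cycling cDC2 (log2 fold change 2.21 ± 0.24, edgeR adjusted p = 2.13e-05). Mrc1, the mannose receptor, was at 132 and 407 CPM in adult cycling cDC2, against 3.83 and 24 CPM in neonatal cycling cDC2 (log2 fold change 4.74 ± 0.70, edgeR adjusted p = 0.00148), and its adjusted p was 0.0985 without adult pool 2. Its log2 fold change lay between 3.44 without neonatal pool 1 and 5.95 without neonatal pool 2, and was 5.33 without adult pool 1.

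Galectin 1, a fetal RNA-binding protein and a chemokine were lower in adults. Lgals1, galectin 1, was at 297 and 279.9 CPM in adult cycling cDC1, against 689 and 823 CPM in neonatal cycling cDC1 (log2 fold change -1.31 ± 0.16, edgeR adjusted p = 3.44e-05), and in cDC2 at 527 and 611 CPM in adult cycling cDC2, against 1453 and 1409 CPM in neonatal cycling cDC2 (log2 fold change -1.30 ± 0.18, edgeR adjusted p = 2.64e-04). Ccl17, a chemokine for CCR4+ T cells, was at 337 and 145 CPM in adult cycling cDC2, against 2202 and 2028 CPM in neonatal cycling cDC2 (log2 fold change -3.11 ± 0.24, edgeR adjusted p = 2.45e-07), with -3.84 without adult pool 1 and -1.44 among non-cycling cDC2. Igf2bp3, a fetal RNA-binding protein, was at 0 and 0 CPM in adult cycling cDC1, against 46.6 and 36 CPM in neonatal cycling cDC1, at least 4.16-fold lower against a floor of 3 UMIs over the adult group. Bcl2a1b, a survival gene of the A1 family, was at 139 and 175 CPM in adult cycling cDC1, against 365 and 391 CPM in neonatal cycling cDC1 (log2 fold change -1.20 ± 0.19, edgeR adjusted p = 7.27e-04).

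Of the cell cycle lists, 4 of 267 genes tested differed between adult and neonatal cycling cDC1 (1.5%), against 2.13% of all genes. Of these, 3 were lower in adults (1.12%), against 0.498% of all genes. In cDC2, 7 of 126 differed (5.56%), all lower in adults, against 1.21% of all genes lower. None of 42 S phase genes tested in cDC1 passed (median 0.36) and 2 of 48 G2/M genes were lower in adults (median -0.45). These were Cenpa, the centromeric histone, at 75.9 and 105 CPM in adult cycling cDC1, against 202 and 198 CPM in neonatal cycling cDC1 (log2 fold change -1.08 ± 0.24, edgeR adjusted p = 0.0165), and Ccnb2, a B cyclin, at 25.3 and 70.0 CPM in adult cycling cDC1, against 136 and 125 CPM in neonatal cycling cDC1 (log2 fold change -1.41 ± 0.34, edgeR adjusted p = 0.0283). Without adult pool 1 their adjusted p was 0.256 and 0.469, and Ccnb2 stood at -2.30 without adult pool 2. In cDC2, 3 of 18 histone genes and 2 of 18 spindle genes were lower in adults. The histone count was 6 without adult pool 2, and 2 histone genes were higher without adult pool 1. The spindle count was 1 without adult pool 2 and 0 with either neonatal pool left out. Hmgb1, a chromatin protein, was at 674 and 567 CPM in adult cycling cDC2, against 1379 and 1270 CPM in neonatal cycling cDC2 (log2 fold change -1.07 ± 0.18, edgeR adjusted p = 0.0012), against -0.46 in non-cycling cDC2. H2afx, the histone variant of DNA breaks, was at 117 and 102 CPM in adult cycling cDC2, against 331 and 331 CPM in neonatal cycling cDC2 (log2 fold change -1.56 ± 0.33, edgeR adjusted p = 0.0087). The cells near the threshold were spread unevenly between the ages in cDC2. Exactly 2 UMIs of the rule genes were held by 6 of 15 adult and 10 of 90 neonatal cycling cDC2. At least 5 were held by 5 of 15 adult and 58 of 90 neonatal ones. In cDC1 exactly 2 were held by 9 of 27 adult and 62 of 243 neonatal cycling cells. With at least 3 UMIs required, adult pool 2 kept only 2 cycling cDC2 and adult pool 1 kept 7, so cDC2 values at this threshold rest on very few adult cells. The log2 fold change was then -0.87 for Hmgb1 (edgeR adjusted p = 0.0434) and -1.47 for H2afx (edgeR adjusted p = 0.0477). With this threshold 1 histone gene and no spindle gene was lower in cDC2. Ccnb2 in cDC1 then had an adjusted p of 0.0614. The 15 adult cycling cDC2 held a median of 6 UMIs of the S phase list, against 23 in the neonatal ones. In cDC1 these medians were 49 in adult and 26 in neonatal cycling cells.

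**Figure D5:**
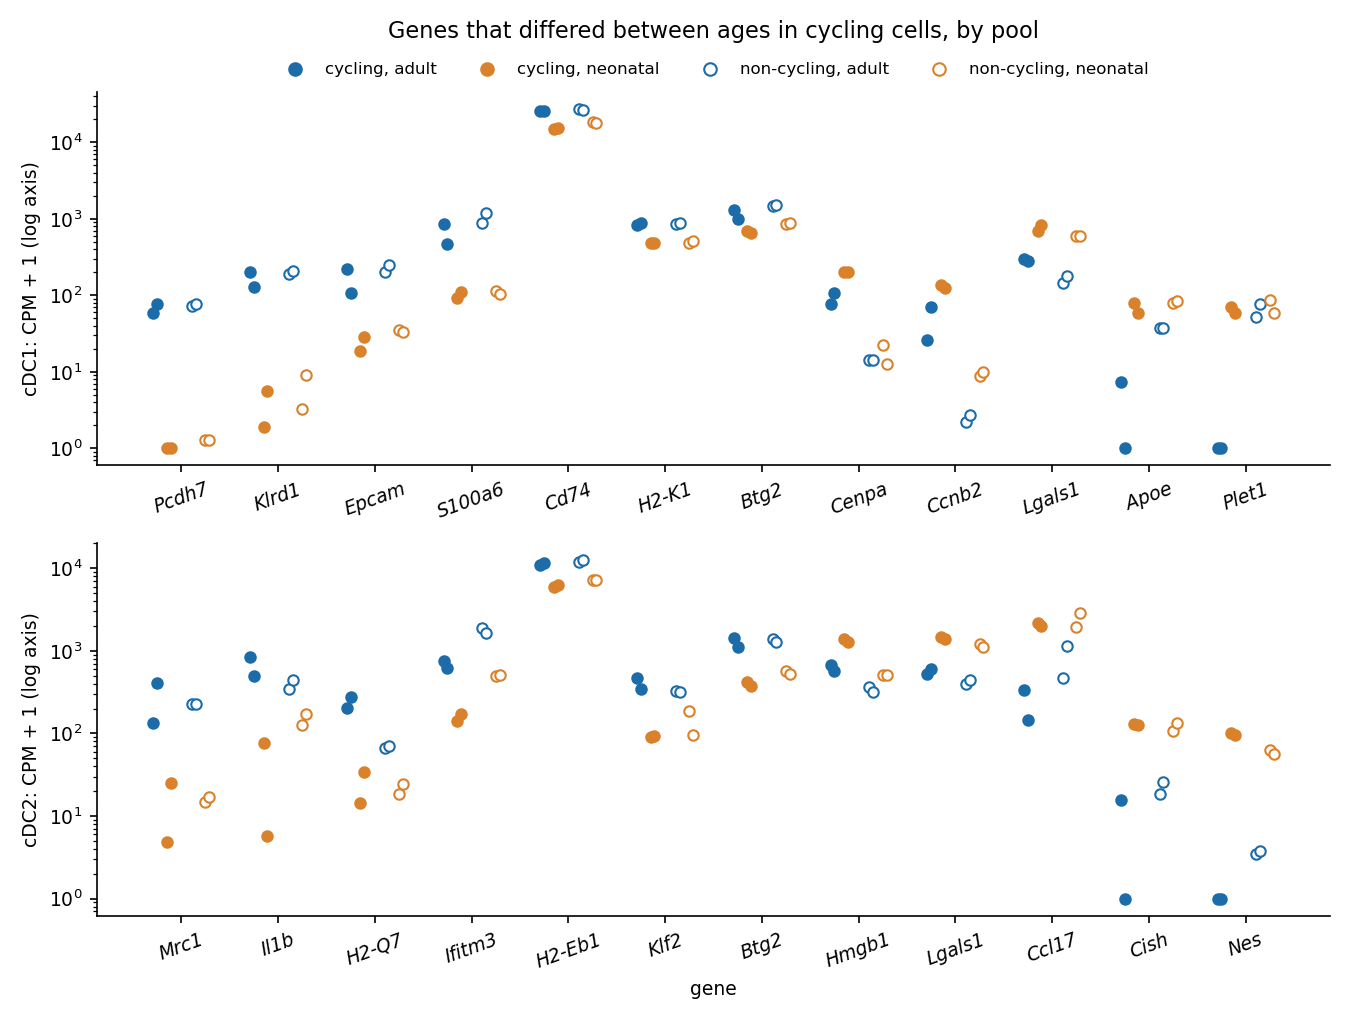
Level (y axis, CPM + 1 of summed cells, log axis) of genes that differed between adult and neonatal cycling cells, cDC1 above and cDC2 below, 1 point per pool, filled for cycling and open for non-cycling cells, coloured by age. Klrd1 lies at 202 and 126 CPM in adult and at 0.880 and 4.62 CPM in neonatal cycling cDC1, with the non-cycling pools of each age close to the cycling ones.

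Whether the cycling difference itself depended on age was tested by an interaction, adult minus neonatal. It was called for 10 of 8382 genes in cDC1 (0.119%) and 15 of 7203 in cDC2 (0.208%), with 2 and 1 called by DESeq2 and 546 and 504 at an unadjusted p under 0.05. In cDC1 the count was 20 without adult pool 1. In cDC2 it was 27 without adult pool 1, 64 without adult pool 2, 4 without neonatal pool 1 and 7 without neonatal pool 2. Lyz2, the lysozyme of monocytes and macrophages, had the firmest difference in cDC2. It was at 674 and 1091 (adult) and 364 and 316 CPM (neonatal) in cycling cDC2, against 7789 and 6288 (adult) and 720.5 and 673 CPM (neonatal) in non-cycling cDC2, so that the gap between the states was larger in adults (interaction -2.18 ± 0.20, edgeR adjusted p = 6.66e-14). It was -2.82 without adult pool 2.

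Stmn1 differed more between the states in adult than in neonatal cDC1: it was at 911 and 1386 (adult) and 924 and 853 CPM (neonatal) in cycling cDC1, against 10.4 and 13.1 (adult) and 34 and 40.3 CPM (neonatal) in non-cycling cDC1 (interaction 1.99, edgeR adjusted p = 1.86e-06). Hist1h2ap, a replication-dependent H2A gene, was at 228 and 546 (adult) and 820.0 and 613 CPM (neonatal) in cycling cDC1, against 15.9 and 15.8 (adult) and 7.36 and 6.91 CPM (neonatal) in non-cycling cDC1 (interaction -2.13, edgeR adjusted p = 3.65e-04, 0.0956 without adult pool 1). It was -2.81 without adult pool 2. Plet1, a surface protein of epithelial and dendritic cells, was at 0 and 0 (adult) and 69.5 and 58.2 CPM (neonatal) in cycling cDC1, against 51.4 and 75.3 (adult) and 86 and 58.4 CPM (neonatal) in non-cycling cDC1. No UMI was found in the 27 adult cycling cDC1, so it was at least 6.42-fold lower than in neonatal ones, while the ages overlapped among non-cycling cDC1.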

How the data were processed

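The deposited count tables hold UMI counts per gene and droplet, made by the authors with Cell Ranger 6.1.2 against mm10, per the submitters' processing notes, which also name Seurat 4.2.0. Both ages stand in 1 matrix of 32285 genes and 2 hashtags with 14710 barcodes, of which 12968 passed the filters given in the report. Each barcode's pool was read from its ending, as the series' design text assigns it, and not from hashtag counts. Cells that Scrublet predicted as doublets within an age (0 to 4 among the cycling cells of a lineage in a pool) and the 6 cells with over 20% of their hashtag UMIs from the other hashtag were kept, and left out in an alternative.

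Raw UMI counts were summed per lineage, state and pool and tested with edgeR 4.0.16 in R 4.3.3 (limma 3.58.1): filterByExpr, TMM, robust quasi-likelihood fits and Benjamini-Hochberg adjustment over all genes tested, with 0.05 as the threshold. Cycling and non-cycling cells of a pool are the same mice in the same channel, so the pool was a block. Mki67, Top2a and the lineage genes were not tested. Cell cycle list genes are given as values between the states, where they stayed in the fit and in the adjustment together with the other genes. The list genes were also tested between the ages and in the interactions. Levels are CPM of the sums, and a group at 0 was set to a floor of 3 UMIs for a bound. Folds of genes with few UMIs and their intervals come from summed UMIs. Shares have exact (Clopper-Pearson) 95% intervals, and ages were compared with exact permutation over the 4 pools. With 2 pools per age, p-values of the age fits rest on the spread between these pools and on a spread that edgeR shares across genes. In fits with the pool as a block, they rest on how the difference between the states varies from pool to pool. DESeq2 1.42.0, Python 3.11.15, scanpy 1.11.5 and scipy 1.17.1 were also used. The models were tested on simulated counts. Of 2-fold changes, the cycling fits recovered 79.6% in cDC1 and 45.8% in cDC2, and the age fits 34.1% and 27.9%. The lineage interaction recovered 36%, and the age interaction 12% in cDC1 and 14.3% in cDC2. The age interaction made 8 false calls among unchanged genes in cDC1 and 2 in cDC2, and the lineage interaction 5. A small count of called interactions therefore does not show that few genes differ.

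Genes are named by list (the most changed members) and by size of change with at least 20 CPM in the higher state (50 CPM for age). The members and lists were chosen with earlier results of these data known, so counts within lists are descriptions. H2-Q genes, histone genes and the Bcl2a1 family have near-identical copies whose reads may be split. One gene with a called age interaction in cDC2 is not reported here.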

Additional observations from a re-analysis of the deposited data

Results flagged for a closer look

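The genes below had a cycling difference that itself differed between the lineages or between the ages, by an interaction term in edgeR at an adjusted p under 0.05. Values are differences of log2 fold changes.

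Between the lineages (cDC2 minus cDC1), the difference was larger in cDC2 for Timeless (1.98), Ube2c (1.63), AA467197 (1.40) and the lamin gene Lmna (1.00). It was smaller or more negative in cDC2 for Trappc5 (-0.90), Tuba1b (-0.93), Cdkn2d (-1.28), the cytokinesis gene Racgap1 (-1.52), Fam111a (-1.62), the apolipoprotein gene Apoe (-2.27) and F13a1 (-4.97). Stfa2 (-3.64), Camp (-3.88) and Stfa3 (-4.89) are neutrophil genes. They were highest in neonatal pool 1 of cycling cDC1 (37.8, 71.3 and 51.9 CPM) and in neonatal pool 2 of non-cycling cDC2 (57.5, 68.7 and 53.7 CPM). The 12 neutrophil markers summed to 1211 CPM and 1304 CPM in those same sums, and their part in the result was not tested.

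Between the ages (adult minus neonatal) in cDC1, the difference was larger in adults for Stmn1 (1.99). It was smaller or more negative for Vim (-0.39), Bcl2a1b (-0.97), the histone genes Hist1h1c (-1.15), Hist1h1b (-1.17), Hist1h2ae (-1.82) and Hist1h2ap (-2.13), the chemokine Ccl22 (-3.40), Gpr171 (-4.39) and Plet1 (-9.38). For Plet1, at 0 in adult cycling cells, the fitted value depends on a prior count and is no bound.

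In cDC2 the difference was larger in adults for Cd7 (8.69) and the interferon-inducible gene Ifi27l2a (1.00). Cd7 was at 43.95 and 101.8 (adult) and 0 and 0 CPM (neonatal) in cycling cDC2, against 6.167 and 11 (adult) and 10.71 and 19.99 CPM (neonatal) in non-cycling cDC2. It was smaller or more negative in adults for the gene model Gm42418 (-0.49), H2afz (-0.67), the immediate early genes Fos (-0.97), Fosb (-1.08), Nfkbia (-1.08), Jun (-1.09) and Socs3 (-2.45), Hist1h1e (-1.36), Prdx5 (-1.45), Lyz2 (-2.18), Hist1h2ae (-3.30) and the fibronectin gene Fn1 (-9.08). Fn1 was at 0 and 0 (adult) and 23 and 4.79 CPM (neonatal) in cycling cDC2, against 197 and 226 (adult) and 38.2 and 18.7 CPM (neonatal) in non-cycling cDC2. The fitted values of Cd7 and Fn1 rest on groups at 0. Adult cycling cDC2 are 7 and 8 cells, and without adult pool 2 the count of such genes was 64 in place of 15.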

How the results depend on the processing

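Alternatives changed 1 choice at a time, except that the stricter cell filter raised the gene minimum to 1000 and lowered the mitochondrial maximum to 5% together, and DESeq2 replaced scaling and test. The direction of the difference in the share of cycling cells held in all of them for both lineages. For cDC1 (-10.84 points, adult minus neonatal) it was -8.40 with at least 3 UMIs of the rule genes, -5.855 with cells thinned to 2000 UMIs, -10.09 with at least 3 lineage UMIs, -11.39 with a stricter cell filter and -11.27 to -10.4 with 1 pool left out. For cDC2 (-12.14) it was -16.89 with at least 1 UMI, -9.554 thinned and -13.92 to -10.36 with 1 pool left out. The share with more G2/M than S phase UMIs did not hold its direction. In cDC1 (-12.42) it was 6.407 with at least 1 UMI, -42.85 thinned and -29.92 to 5.081 with 1 pool left out. Once thinned, 1.68% and 3.59% of adult cDC1 still passed the rule, so the value of -42.85 rests on few adult cells. In cDC2 (-13.16) it was -5.314 with at least 1 UMI, 1.19 with at least 3, -8.519 without predicted doublets, 12.64 thinned and -15.84 to -10.48 with 1 pool left out. The value of 1.19 includes 100% in adult pool 2, which held 2 cells there. Once thinned, 2.48% and 0.926% of adult cDC2 still passed the rule, and both adult pools stood at 100%.

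Counts of called genes were lower under DESeq2 and in thinned cells: 722 and 376 for cycling cDC1, 189 and 89 for cycling cDC2, 2 and 3 for the lineage interaction, 73 and 22 for age in cDC1, and 31 and 37 for age in cDC2. Fewer genes were tested in thinned cells, 2093 for age in cDC1 and 521 for age in cDC2, against 6231 and 2321, so that counts do not compare as shares. Without neonatal pools 1 and 2, 2712 and 2730 genes were tested for age in cDC1 and 1341 and 1344 in cDC2. With 1 pool left out they ran over 855 to 1500, 92 to 393, 3 to 17, 66 to 212 and 34 to 105 in the same order. For age in cDC1, no low count filter gave 200. For age in cDC2, at least 3 UMIs of the rule genes gave 54, at least 10 UMIs per gene 137 and leaving out doublets 49. The threshold of 3 UMIs left 2 cycling cDC2 in adult pool 2. The age interaction in cDC1 gave 37 with at least 3 UMIs, 2 under DESeq2, 16 with at least 10 UMIs per gene, 5 thinned, 20 with no filter, 16 with a stricter cell filter and 10 to 20 with 1 pool left out. In cDC2 it gave 9, 1, 31 and, with doublets left out, 28, then 30 with no filter, 26 stricter, 40 with at least 3 lineage UMIs and 4 to 64 with 1 pool left out. Without the pool block, the pairing of states within a pool, 1634 genes were called in cycling cDC1 (1515 shared with the blocked fit) and 466 in cycling cDC2 (401 shared).

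Of single genes, Cdkn1a in cycling cDC1 changed sign without neonatal pool 1 (-0.044, range to 0.887 with 1 pool left out), H2-Q7 in cycling cDC2 with neonatal pools only (-0.019) and Klf2 between the ages in cDC1 with at least 3 UMIs (-0.19). The cause was not tested. The age comparisons rest on 27 adult cycling cDC1 and 15 adult cycling cDC2.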
